A study of Mus musculus with 8 samples.

Results

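Triglyceride synthesis and VLDL assembly were followed through 10 genes chosen by symbol, Gpam, Agpat2, Agpat3, Lpin1, Lpin2, Dgat1, Dgat2, Mogat1, Mttp and Tm6sf2. All 10 were listed in both assays, out of 24535 symbols listed once in RNA-seq and 25033 in Ribo-seq, and all 10 had a mean RPKM of at least 1 in each assay over its 4 libraries, so that all entered the main tests. Mogat1 fell below the filter in RPF and TE under some alternative settings. The libraries came from livers of male C57BL/6 mice on a high-fat diet (fat giving 45% of kcal) from week 8, taken at week 25. The HF group received this diet alone. The HB group received the same diet with betaine, a methyl donor, dissolved in the drinking water at 2% (w/v). Each assay had 2 libraries per group, called HF1, HF2, HB1 and HB2. The methods of the study state that as many mice per group as there are libraries were chosen for sequencing, those nearest the average body weight, and call the libraries biological repetitions, whereas the labels describe RNA preparations pooled in equal amounts. The sources do not settle whether a library is a single mouse, so the p-values are read as measuring the spread between libraries. RNA-seq counted polyadenylated mRNA. Ribo-seq counted ribosome-protected fragments (RPFs), pieces of mRNA covered by a ribosome, and translation efficiency (TE) is the RPF RPKM divided by the mRNA RPKM of the library with the same group and number. The sources do not say whether these libraries share an animal.

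The liver builds triglyceride on a glycerol backbone. GPAM, a mitochondrial acyltransferase, adds the first fatty acid to glycerol-3-phosphate, the AGPAT enzymes add the next and make phosphatidic acid, and the lipins remove its phosphate to give diacylglycerol. DGAT1 and DGAT2 complete the triglyceride, and MOGAT1 can supply diacylglycerol from monoacylglycerol. MTTP, the microsomal triglyceride transfer protein, loads this lipid onto apolipoprotein B in the endoplasmic reticulum, and TM6SF2 is required for full lipidation of the particle. The loaded particle leaves the hepatocyte as very-low-density lipoprotein (VLDL).

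The RefSeq promoter windows of GRCm38.p6 held an entry for 7 of the 10 genes, 10 windows in all, and none for Dgat1, Dgat2 and Tm6sf2. The 250 bases before the start site were searched on both strands for CACGTG (an E-box, in 6.02% of all 32851 windows of this length), CCAAT (33.8%), GGGCGG (a GC box, 32.7%), TCACNCCAC (a sterol response element, 1.05%) and AGGTCA (a nuclear receptor motif, 14.0%). The windows of Gpam are shown because this gene has a pair of annotated starts and was the member whose mRNA differed most between the HB libraries, and the first window of Lpin2 because it was the member with a lower mRNA level past the adjusted threshold. Capitals mark the matches. The first Gpam window is chr19:55127239-55127488 (minus strand), with a CCAAT match that lies on the opposite strand.
Gpam upstream start: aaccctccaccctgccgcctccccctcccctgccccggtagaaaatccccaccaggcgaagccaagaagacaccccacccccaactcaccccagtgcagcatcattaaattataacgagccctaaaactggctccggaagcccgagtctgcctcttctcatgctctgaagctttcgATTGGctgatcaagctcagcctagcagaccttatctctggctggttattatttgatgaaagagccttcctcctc
The second Gpam window is chr19:55099478-55099727 (minus strand), with AGGTCA and, on the opposite strand, a GC box.
Gpam downstream start: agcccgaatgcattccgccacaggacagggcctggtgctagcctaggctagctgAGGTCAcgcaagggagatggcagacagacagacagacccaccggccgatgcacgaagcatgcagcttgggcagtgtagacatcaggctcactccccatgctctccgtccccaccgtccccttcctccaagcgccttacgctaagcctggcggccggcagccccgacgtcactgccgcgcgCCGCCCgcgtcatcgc
The Lpin2 window is chr17:71183282-71183531 (plus strand), with a GC box and an E-box.
Lpin2 first start: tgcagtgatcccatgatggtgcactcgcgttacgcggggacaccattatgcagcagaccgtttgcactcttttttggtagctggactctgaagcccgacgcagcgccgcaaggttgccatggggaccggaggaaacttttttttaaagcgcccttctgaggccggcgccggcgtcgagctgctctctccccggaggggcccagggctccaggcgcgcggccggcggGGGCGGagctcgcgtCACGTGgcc
These matches describe the letters of the windows, and no measurement here bears on binding to them.

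Whole reads could be recovered from the steps between low RPKM values. The RNA-seq libraries totalled 11661207 and 11824128 reads in HF and 22543472 and 18082685 in HB. The Ribo-seq libraries totalled 387980 and 1056546 in HF and 257086 and 141890 in HB. HB was thus the deeper group in RNA-seq and the shallower group in Ribo-seq. The part of depth in the RPF and TE results was not tested. On a gene of 1 kb, 3 reads were worth at most 0.257 RPKM in RNA-seq and between 2.84 and 21.1 RPKM in Ribo-seq. The hepatocyte markers (Alb, Ttr, Cps1, Apoa1, Hnf4a and Asgr1) were present in all 8 libraries, with a summed mRNA level of 41581 to 47378 RPKM. Members of the set are also used by fat and gut. The 6 adipocyte markers summed to 820 and 1228 RPKM of mRNA in HF and 1840 and 1448 in HB, nearly all of it Car3, which the liver also expresses. Cfd was 9.52 and 12.1 RPKM in HF and 22.3 and 22.7 in HB (log2 fold change 1.00, adjusted p = 0.0187, limma), while Adipoq was at most 0.539 RPKM and Plin1, Lep and Retn were lower still. The 3 enterocyte markers summed to 443 and 314 in HF and 863 and 884 in HB, nearly all from Fabp2 and Apoa4, which the liver also expresses, while Vil1 was at most 0.355. The 3 blood markers summed to 251 and 210 in HF and 395 and 1005 in HB. The 5 stellate cell markers summed to at most 31.5 in HF and to 68.1 and 40.8 in HB, highest in HB1. Most of this was Dcn, at 21.9 and 22.4 in HF and 57.8 and 30.6 in HB. Of the 4 stellate markers tested in mRNA, 2 had a log2 fold change above 0 and 2 below. The macrophage and endothelial mRNA sums overlapped between the groups, although Cd5l of the first list was higher (1.27, adjusted p = 0.0144, limma) and Stab2 of the second lower (-0.90, adjusted p = 0.0341). At an adjusted p under 0.05, 7.92% of all tested genes were higher and 19.1% lower. Fabp2 (1.27, adjusted p = 0.00957) and Hbb-bs (2.51, adjusted p = 0.00526) were called higher by limma, as were 2.3% of all tested genes. The other globin of the blood list, Hba-a1, was 154 and 109 RPKM in HF and 79.4 and 296 in HB. Its log2 fold change was 0.24 (adjusted p = 0.747, limma), while that of Alas2 was 1.09 (adjusted p = 0.0227). In RPF, all tested macrophage (6), stellate (4) and endothelial (4) markers had a log2 fold change below 0, as did 7879 of all 11190 tested genes. Cd68, Pecam1 and Stab2 met the unadjusted thresholds of the study for a lower RPF level (adjusted p = 0.493 for each, limma), as did 7.86% of all tested genes. The stellate RPF sums were 114 and 97.7 RPKM in HF and 86.0 and 78.9 in HB, and the macrophage and endothelial RPF sums overlapped. The part of these lists in the results was not tested. The ribosomal RNA gene Rn45s stood at 114 and 47.7 RPKM in the HF and 498 and 529 in the HB libraries of Ribo-seq, and at 115 and 167 in HF and 16.5 and 95.0 in HB in RNA-seq, and its part in the results was also not tested. In bulk tissue, fewer cells of a type and less RNA per cell cannot be told apart.

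The mRNA level of the 10 genes spanned a wide range in HF livers. Dgat2 was highest with a mean of 276 RPKM, followed by Lpin2 (189), Lpin1 (108), Agpat2 (105), Agpat3 (48.7), Mttp (27.5), Tm6sf2 (26.2), Dgat1 (23.5), Gpam (6.25) and Mogat1 (3.32). Lpin1 and Agpat2, Mttp and Tm6sf2, and Tm6sf2 and Dgat1 overlapped as neighbours in this order. Dgat2 was also highest in both HB libraries. Mogat1 was lowest in HB1, and in HB2 Gpam was lower than Mogat1.

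**Figure D1:**
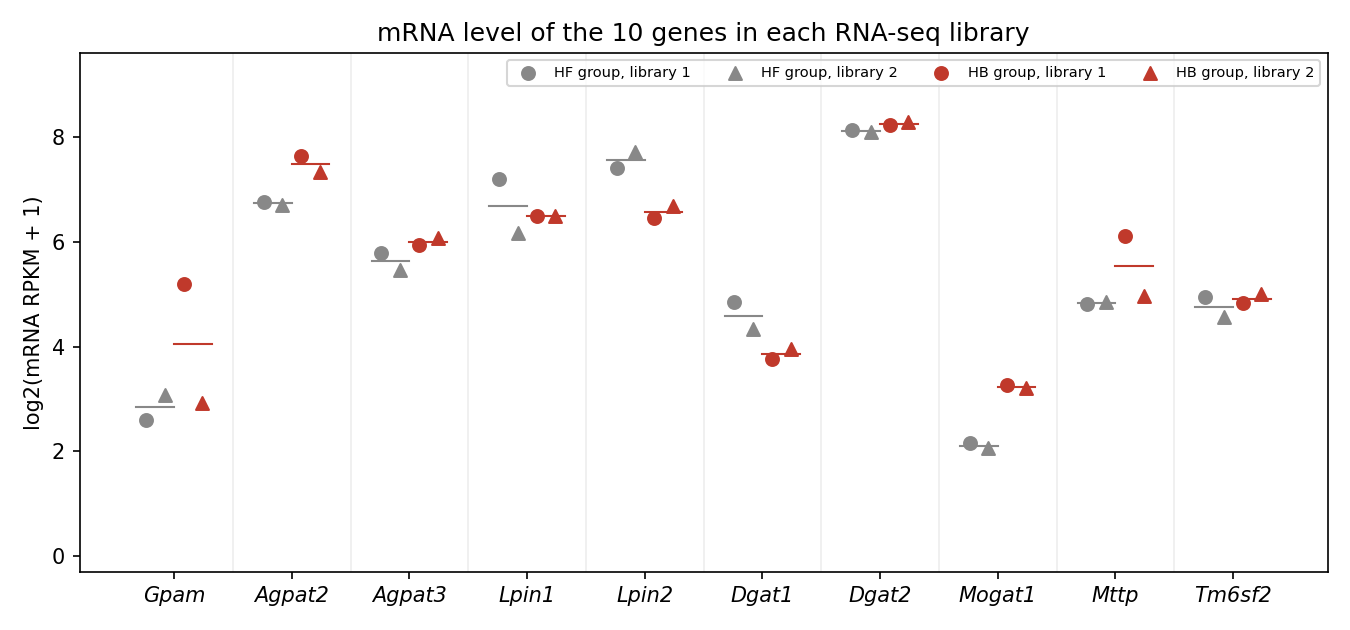
The mRNA level of each gene, as log2(RPKM + 1), in HF (grey) and HB (red) libraries 1 (circles) and 2 (triangles), with short lines at the group means. Mogat1 lay higher and Lpin2 lower in both HB libraries, whereas the Gpam and Mttp points of HB1 stand above the other 3.

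With limma at the thresholds the study set (an absolute log2 fold change above 1 and an unadjusted p below 0.001), 0 of the 10 mRNAs were called, against 2.3% of the 10687 tested genes called higher in HB and 6.56% called lower. At an adjusted p under 0.05 (limma with Benjamini-Hochberg adjustment over all tested genes), Mogat1 was higher and Lpin2 was lower, against 7.92% of all tested genes higher and 19.1% lower. Separation of the groups is common in these data, since both HB values lay above both HF values for 24.8% of genes and below them for 43.3%. Among the members, 5 lay above (Agpat2, Agpat3, Dgat2, Mogat1 and Mttp) and 2 below (Lpin2 and Dgat1). The median mRNA log2 fold change of the 10 genes was 0.26, beside -0.19 over all tested genes.

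Gpam, the acyltransferase of the first step, had 5.06 and 7.45 RPKM of mRNA in HF1 and HF2 and 35.4 and 6.60 in HB1 and HB2. HB1 alone was high, at 5.36 times HB2, while HB2 lay between the HF values. Only 16 of the 10687 tested genes differed more between the HB libraries. The fitted log2 fold change was 1.22 (SE 0.58, adjusted p = 0.143, limma). It was 0.09 without HB1 and 2.35 without HB2 (adjusted p = 0.000456), so 1 library decides it. The RPF level of Gpam was 84.0 and 113 RPKM in HF and 133 and 55.6 in HB, again with HB1 the higher, and the groups overlapped. The RPF log2 fold change was -0.18 (SE 0.49, adjusted p = 0.901), and it was -0.80 without HB1, 0.44 without HB2 and 0.15 with the libraries shifted to a common median.

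Agpat2, the acyltransferase of the second step whose loss causes lipodystrophy, had mRNA levels of 107 and 104 RPKM in HF and 199 and 159 in HB. Both HB libraries lay above the HF libraries, at a log2 fold change of 0.75 (SE 0.26, adjusted p = 0.0568), which missed the adjusted threshold. The adjusted p (limma) was 0.0242 with the libraries shifted to a common median, 0.0889 with no filter on low genes and 0.0713 with a common sum. The Agpat2 log2 fold change was 0.77 without HF1, 0.73 without HF2, 0.59 without HB1 and 0.91 without HB2. Its RPF level of 111 and 106 RPKM in HF and 151 and 107 in HB overlapped between groups, with a log2 fold change of 0.22 (SE 0.30) that became -0.64 with the libraries rescaled to a common sum. Agpat3, a related acyltransferase that prefers polyunsaturated fatty acids, had 54.1 and 43.3 RPKM of mRNA in HF and 60.0 and 65.9 in HB, a log2 fold change of 0.37 (SE 0.25, adjusted p = 0.298). The RPF level of Agpat3 ran the other way, with 84.7 and 82.6 RPKM in HF and 63.3 and 51.2 in HB, a log2 fold change of -0.55 (SE 0.29, adjusted p = 0.584). As a ratio within a library, Agpat2 over Agpat3 in RPF was 1.31 and 1.29 in HF and 2.38 and 2.10 in HB. In mRNA the same ratio was 1.97 and 2.39 in HF and 3.31 and 2.41 in HB.

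Lpin2, the phosphatidate phosphatase with the higher mRNA level in HF livers, had 169 and 208 RPKM in HF and 86.6 and 102 in HB. The groups did not overlap, and the log2 fold change was -0.99 (SE 0.26, adjusted p = 0.0233, limma), just short of the fold threshold of the study and short of its p threshold. Its adjusted p was 0.0891 with the libraries shifted to a common median, 0.0630 with no filter on low genes, 0.0780 without HF1 and 0.189 without HF2. Lpin2 RPF was 122 RPKM in both HF libraries and 78.5 and 80.9 in HB, with little spread in either group and a log2 fold change of -0.61 (SE 0.26, adjusted p = 0.519). Lpin1, which also acts as a nuclear coactivator, had 146 RPKM of mRNA in HF1 and 70.6 in HF2 and 89.5 and 88.5 in HB. The HF values bracketed the HB values, and only 2.01% of tested genes differed more between the HF libraries. The log2 fold change was -0.19 (SE 0.34, adjusted p = 0.704), and it was 0.33 without HF1. In RPF, Lpin1 was 134 and 70.7 RPKM in HF and 48.4 and 53.9 in HB, without overlap, a log2 fold change of -0.92 (SE 0.40, adjusted p = 0.530). It was -0.46 without HF1 and -1.37 without HF2, where it passed the thresholds of the study for RPF (unadjusted p = 0.0241, adjusted p = 0.391). Lpin2 over Lpin1 in mRNA was 1.16 and 2.95 in HF and 0.968 and 1.15 in HB, and in RPF it was 0.911 and 1.72 in HF and 1.62 and 1.50 in HB.

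Dgat2, the acyltransferase that uses newly made fatty acids, had the most mRNA of the set and moved little, with 279 and 273 RPKM in HF and 297 and 312 in HB (log2 fold change 0.14, SE 0.26, adjusted p = 0.715). Its RPF level was 279 and 207 RPKM in HF and 195 and 194 in HB, a log2 fold change of -0.30 (SE 0.28, adjusted p = 0.700, limma). This became 0.022 with the libraries shifted to a common median, -0.087 without HF1 and -0.52 without HF2. Dgat1, the other triglyceride-forming acyltransferase, had 28.0 and 19.1 RPKM of mRNA in HF and 12.6 and 14.5 in HB. Both HB values lay below the HF values, at a log2 fold change of -0.73 (SE 0.27, adjusted p = 0.0712). It was -0.46 with the libraries shifted to a common median and -0.47 without HF1, and its adjusted p was 0.0445 without HB2. Dgat2 over Dgat1 in mRNA was 9.99 and 14.3 in HF and 23.6 and 21.5 in HB, and in RPF, where few Dgat1 reads stand behind it, 34.9 and 17.6 in HF and 24.3 and 10.7 in HB. Footprints of Dgat1 were few, with 6, 24, 4 and 5 reads in HF1, HF2, HB1 and HB2. The resulting 8.00, 11.7, 8.04 and 18.2 RPKM overlapped, and the exact Poisson 95% interval of HB2 ran from 5.92 to 42.5 RPKM, for counting error only.

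Mogat1, the monoacylglycerol acyltransferase, had 3.48 and 3.16 RPKM of mRNA in HF and 8.61 and 8.21 in HB, from 49, 45, 234 and 179 reads. The HB libraries were 2.59 and 2.47 times the HF mean and close to each other. The fitted log2 fold change, which understates the change of a low gene because 1 RPKM is added first, was 1.12 (SE 0.24, unadjusted p = 0.00102, adjusted p = 0.0114, limma). This p lies just outside the threshold of the study, and that of Lpin2, 0.00387, farther out. The adjusted p was 0.0564 with no filter on low genes, 0.0538 without HF1 and 0.0671 without HF2. The exons of Mogat1 share 200 bases with BC035947 on the opposite strand, and reads of overlapping genes cannot be told apart without strand.

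The footprints of Mogat1 were at the floor in every Ribo-seq library, with 3 and 3 reads in HF1 and HF2 and 0 and 0 in HB1 and HB2. The HF values were 6.41 and 2.35 RPKM, and a count of 0 allows up to 9.68 RPKM in HB1 and 17.5 in HB2, taking 3 reads as the limit. A fall was therefore not detectable at this depth and no fold is given, although Mogat1 met the thresholds of the study for a lower RPF level (unadjusted p = 0.0236, adjusted p = 0.493, limma) and a lower TE (unadjusted p = 0.00329, adjusted p = 0.305). It was the only member called in either.

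Mttp, the lipid transfer protein of VLDL assembly, had 27.2 and 27.8 RPKM of mRNA in HF and 68.2 and 30.1 in HB. As for Gpam, HB1 was the high library, at 2.27 times HB2, although HB2 also lay above both HF values. The log2 fold change was 0.70 (SE 0.36, adjusted p = 0.168), and it was 0.12 without HB1 and 1.28 without HB2 (adjusted p = 0.00335). Mttp RPF was 71.5 and 80.3 RPKM in HF and 81.2 and 53.2 in HB, overlapping, with a log2 fold change of -0.20 (SE 0.33, adjusted p = 0.834). This was -0.50 without HB1, 0.10 without HB2 and 0.12 with the common median. Its exons share 589 bases with Trmt10a and Gm43691 on the opposite strand. Tm6sf2, the membrane protein of particle lipidation, had 29.7 and 22.7 RPKM of mRNA in HF and 27.3 and 30.9 in HB, a log2 fold change of 0.16 (SE 0.26, adjusted p = 0.677). Its footprints came to 2 and 17 reads in HF and 16 and 0 in HB. These were 3.56 and 11.1 RPKM in HF and 43.0 in HB1, and 0 reads in HB2 allow up to 14.6 RPKM, so the HB range spans the HF values.

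**Figure D2:**
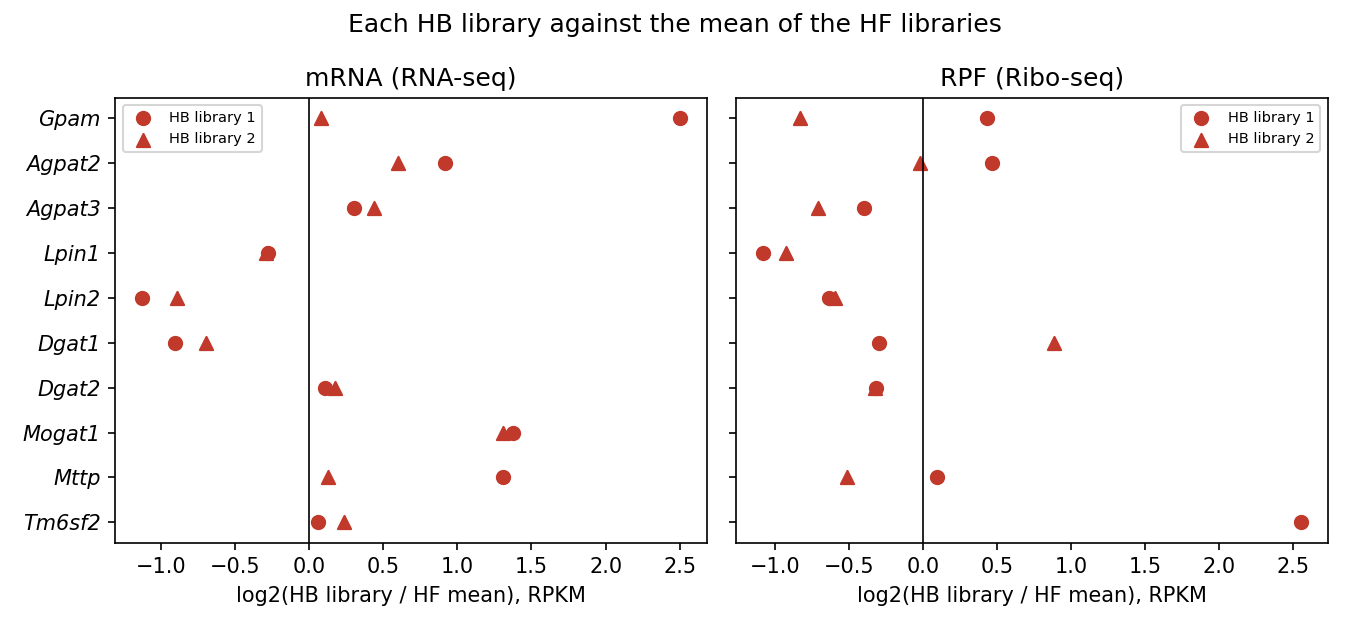
Each HB library divided by the mean of the HF libraries, on a log2 axis, for mRNA (left) and RPF (right), with HB1 as circles and HB2 as triangles. In mRNA the points of Gpam and Mttp lie far apart and those of Mogat1 and Lpin2 close together, and HB values of 0 reads (Mogat1 in RPF, Tm6sf2 in HB2) are not drawn.

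For RPF the thresholds the study set were an absolute log2 fold change above 1 and an unadjusted p below 0.05. At these, limma called 1.58% of the 11190 tested genes as higher and 7.86% as lower, and of the 10 members only Mogat1. At an adjusted p under 0.05 limma called 0 genes, with 1122 genes at an unadjusted p under 0.05 and a smallest adjusted p of 0.108. Both HB libraries lay above both HF libraries for 9.07% of genes and for 0 members, and below for 33.2% of genes and for 4 members (Agpat3, Lpin1, Lpin2 and Dgat2). With the common median the RPF log2 fold changes of these 4 were -0.22, -0.59, -0.28 and 0.022. Mogat1, at 0 reads in HB, is not counted, although genes of this kind are within the 33.2%. The median RPF log2 fold change of the members other than Mogat1 was -0.20, beside -0.43 over all tested genes. Scaling moves the median of all tested genes, by 0.27 for mRNA and 0.33 for RPF when the libraries are shifted to a common median, and by -0.73 for RPF when they are rescaled to a common sum.

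**Figure D3:**
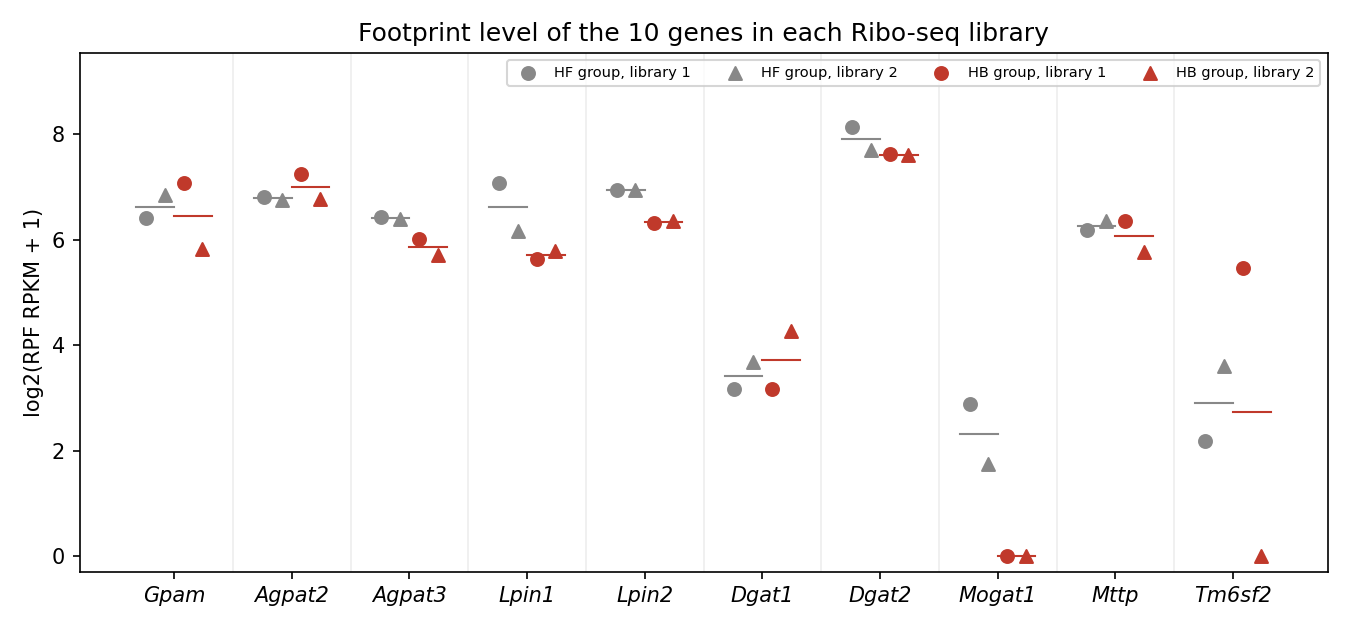
The RPF level of each gene, as log2(RPKM + 1), in HF (grey) and HB (red) libraries 1 (circles) and 2 (triangles), with short lines at the group means. Lpin1, Lpin2, Agpat3 and Dgat2 lay lower in both HB libraries, and Dgat1, Mogat1 and Tm6sf2, at the low end, rest on 0 to 24 reads a library.

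Gpam stood out in TE. Its RPF level was 16.6 and 15.2 times its mRNA level in HF1 and HF2, which is the 99.3 and 99.5 percentile of all genes, and 3.77 and 8.42 times in HB1 and HB2, the 95.5 and 98.2 percentile. The median TE of all genes was 1.07 and 1.02 in HF and 0.877 and 0.739 in HB. The gene lengths by which the RPKM were divided, recovered from the same steps, differ between the assays for this gene (3828 bases for mRNA and 5956 for RPF). On the mRNA length the mean TE of Gpam would be 24.8 in HF and 9.48 in HB, which leaves the ratio between the groups as it is. The fitted TE log2 fold change was -1.39 (SE 0.55, unadjusted p = 0.0453, adjusted p = 0.399, limma), short of the log2 fold threshold of 2. It was -0.89 without HB1 and -1.90 without HB2 (adjusted p = 0.0318). In an interaction model that does not pair the libraries, the unadjusted p was 0.223 (adjusted p = 0.566, limma).

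Agpat3 had a TE of 1.57 and 1.91 in HF and 1.05 and 0.778 in HB, a log2 fold change of -0.92 (SE 0.45). Mttp had 2.63 and 2.89 in HF and 1.19 and 1.77 in HB, a log2 fold change of -0.90 (SE 0.47). Lpin1 had 0.915 and 1.00 in HF and 0.541 and 0.609 in HB, Agpat2 had 1.04 and 1.03 and then 0.757 and 0.675, and Dgat2 had 1.00 and 0.758 and then 0.657 and 0.623. In these genes, as in Gpam, both HB values lay below both HF values. That held for 6 of the 9 members other than Mogat1, whose footprints were at the floor, against 31.7% of all tested genes, which include genes at the floor. The count rests on dividing same-numbered libraries, whose deviations between the assays correlated at -0.00239 in HF and -0.0774 in HB. Under another pairing of the libraries the ratios, and so the count, can change, which was not tested. Lpin2, with 0.720 and 0.585 in HF and 0.906 and 0.794 in HB, and Dgat1, with 0.286 and 0.616 and then 0.640 and 1.26, had both HB values above both HF values, as did 14% of all genes. The Dgat1 values rest on 6, 24, 4 and 5 footprint reads and their gap, 0.616 against 0.640, is within counting error. Lpin2 and Dgat1 are the members whose mRNA was lower in both HB libraries, and the TE of every member is computed from the same mRNA values. At the thresholds the study set for TE (an absolute log2 fold change above 2 and an unadjusted p below 0.05), limma called 1.62% of 9455 genes as higher and 4.78% as lower. At an adjusted p under 0.05 limma called 0 genes in TE, with 1168 at an unadjusted p under 0.05. The median TE log2 fold change of the members other than Mogat1 was -0.53, beside -0.35 over all tested genes. Shifting the libraries to a common median moved the median of all tested genes by 0.053, and rescaling them to a common sum by -0.68. With the common sum the TE log2 fold change of Lpin2 turned from 0.38 to -0.44 and that of Dgat1 fell from 1.03 to 0.27. Those of Agpat3 and Mttp went to -1.74 and -1.72.

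**Figure D4:**
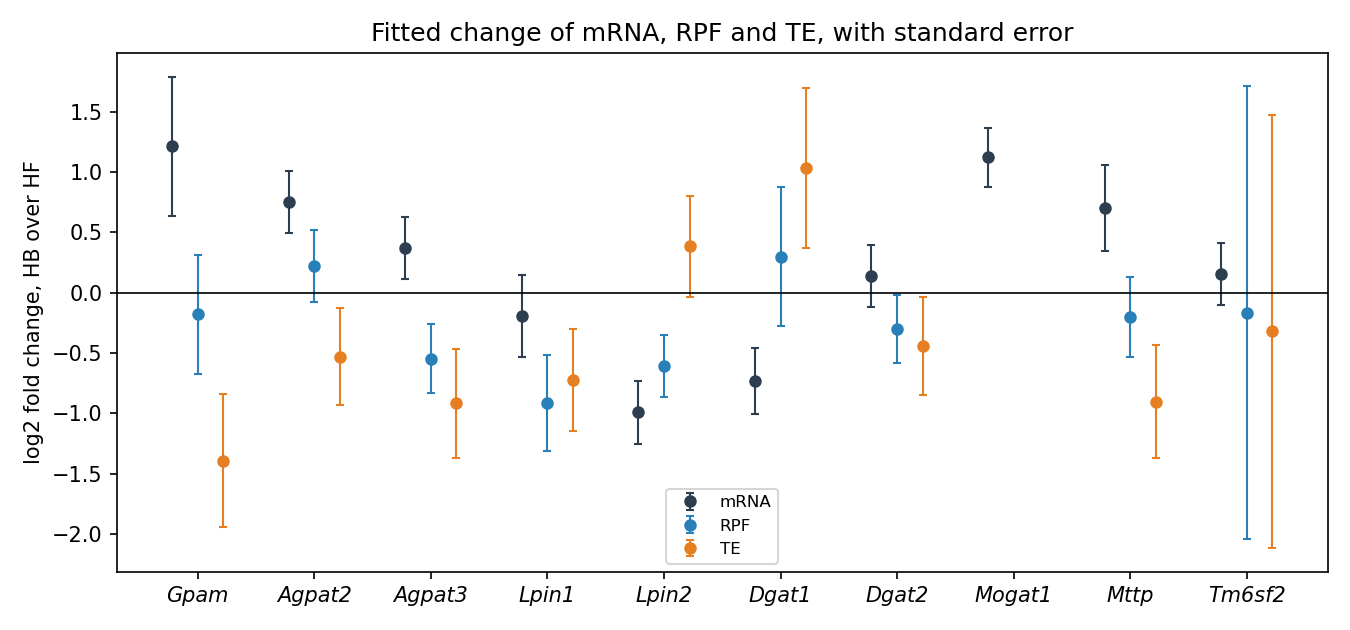
Fitted log2 fold change of HB over HF with its standard error for mRNA, RPF and TE. The mRNA points of Gpam, Agpat3, Agpat2, Mttp, Dgat2 and Tm6sf2 lie above 0 and their TE points below, and Lpin2 and Dgat1 show the reverse order. TE is computed from the same mRNA values. Mogat1 is drawn for mRNA only because its footprints were at the floor.

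The RPF values of the set are levels per transcript length. In all 10 genes the length behind the RPF RPKM was longer than the longest coding sequence of GENCODE M21, for example 1574 against 834 bases for Agpat2 and 2251 against 1164 for Dgat2. The same length was used in both assays for 7 of the 10 genes and for 62.1% of all genes with a recovered length. Besides Gpam, Mttp (4272 and 4504 bases) and Lpin2 (5641 and 5751) differed.

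Other genes of glycerolipid synthesis were measured beside the set. Of 14 listed, 13 were tested in mRNA, 2 were called higher and 1 lower at the thresholds of the study, beside 2.3% and 6.56% of all tested genes. Acsl5, which activates fatty acids, rose with a log2 fold change of 2.02 (SE 0.37, adjusted p = 0.00685), and Gpd1, which makes glycerol-3-phosphate, rose with 1.31 (SE 0.25, adjusted p = 0.00820). Agpat1, the isoenzyme of Agpat2 and Agpat3, fell with a log2 fold change of -1.75 (SE 0.28, adjusted p = 0.00529). In TE both Gpd1 (-2.75, SE 0.64, adjusted p = 0.308) and Acsl5 (-2.33, SE 0.54, adjusted p = 0.306) were called lower by the unadjusted threshold, 2 of 12 beside 4.78% of all tested genes. Gpd1 was also called lower in RPF (-1.44, SE 0.56, adjusted p = 0.498), 1 of 12 beside 7.86%. The median mRNA log2 fold change of this list was -0.27.

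Of 18 other genes of VLDL assembly and secretion, 17 were tested in mRNA and 0 were called by the thresholds of the study. At an adjusted p under 0.05, 5 were higher and 0 lower, beside 7.92% and 19.1% of all tested genes. The 3 with the smallest p were Fitm2, a protein of lipid droplet formation (1.21, SE 0.29, adjusted p = 0.0164), Pla2g12b, which serves the lipidation of VLDL (1.01, SE 0.25, adjusted p = 0.0180), and Cideb, which acts in VLDL lipidation and transport (1.05, SE 0.26, adjusted p = 0.0185). In RPF, Smlr1, a protein of lipoprotein trafficking, was the 1 gene of 18 called, higher (1.39, SE 0.35, adjusted p = 0.493), beside 1.58% of all tested genes. In TE, Fitm2 was the 1 gene of 17 called, lower (-2.57, SE 0.57, adjusted p = 0.305), beside 4.78%. The median mRNA log2 fold change of this list was 0.17.

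Phosphatidylcholine coats the VLDL particle, and betaine feeds the methylation cycle that PEMT draws on. All 7 genes of phosphatidylcholine supply were tested, and the mRNA of the choline kinases Chka (-2.37, SE 0.47, adjusted p = 0.00925) and Chkb (-1.51, SE 0.29, adjusted p = 0.00839) fell at the thresholds of the study, as did 6.56% of all tested genes. Pemt and Pcyt1a were higher at an adjusted p under 0.05, as were 7.92% of all tested genes, Pemt with a log2 fold change of 1.09 (SE 0.27, adjusted p = 0.0185), and Pemt was called lower in TE (-2.38, SE 0.72, adjusted p = 0.350), 1 of 7 beside 4.78% of all tested genes. Of 10 regulators of these genes, 1 was called in mRNA, Mlxipl, which encodes the carbohydrate-responsive factor ChREBP, and it fell (-1.66, SE 0.27, adjusted p = 0.00557). Usf1 and Foxo1 were also lower at an adjusted p under 0.05, which makes 3 of 10 beside 19.1% of all tested genes, and Foxo1 was called lower in RPF (-1.45, SE 0.43, adjusted p = 0.493), 1 of 10 beside 7.86%.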

How the data were processed

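Per the labels and the methods of the study, the authors aligned reads (mm10, FANSe2), deposited an RPKM for every gene in each library, and used edgeR; here limma was fitted because the deposited unit is RPKM. Whole reads, library totals and gene lengths were recovered from the steps between RPKM values (whole for at least 99.96% of RNA-seq and 97.6% of Ribo-seq values above 0). A tolerance of at most 0.05 reads was required only for genes without a length shared by both assays. Genes whose mean RPKM reached 1 were tested with limma 3.58.1 (R 4.3.3) on log2(RPKM + 1), eBayes with an intensity trend, group only, two-sided, with Benjamini-Hochberg adjustment over all tested genes. TE was tested as the log2 ratio of same-numbered libraries. Thresholds for calls are those of the study. Coordinates, exons and coding lengths came from GENCODE M21 (GRCm38), promoters from RefSeq. All 10 members are named, and of each other list up to 3 called genes per measure with the smallest p (of Fitm2, Pla2g12b, Cideb, Pemt, Pcyt1a, Usf1 and Foxo1 in mRNA, the adjusted p under 0.05 served). The members and lists were chosen with earlier results of these data known. The steps were tested on simulated data. No p-value adjusted over a list is given.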

Additional observations from a re-analysis of the deposited data

How the results depend on the processing

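The mRNA calls of all genes numbered 947 (246 higher and 701 lower), the RPF calls 1056 (177 and 879) and the TE calls 605 (153 and 452). With the libraries shifted to a common median the split was 540 higher and 291 lower in mRNA and 349 and 421 in RPF. Rescaled to a common sum it was 41 higher and 2659 lower in RPF (2700 calls, with 5 members lower) and 50 and 1325 in TE (1375 calls, with 2 members lower, Gpam and Mogat1). With voom on recovered reads it was 435 and 697 in RPF, with 0 members. The mRNA calls were 265 with no filter, 1727 with the replicate number as a block and 1888 with the adjusted p. With a mean RPKM of at least 5 the RPF calls were 465 and the TE calls 256, with 0 members in each because Mogat1 did not pass this filter, and with the adjusted p both were 0, with 0 members. In mRNA 1 member, Mogat1, was called with a pseudocount of 0.1, with the common median, with no variance trend and with the adjusted p in place of the unadjusted one, and 2 members, Gpam and Mogat1, with the replicate block. The replicate block left 1 member called in RPF and 1 in TE. Leaving out each library gave 704 to 1558 mRNA calls (0 to 2 members), 472 to 2997 RPF calls (0 to 2 members) and 193 to 1562 TE calls (0 to 2 members), and without HF1 Mogat1 did not pass the filter in RPF and TE. The count of mRNA calls was highest without HB2 (1558), that of RPF calls was lowest without HF1 (472), and those of RPF and TE calls without HB1 were 2997 and 1562, and without HB2 2096 and 1189. TE calls were 193 without HF1 and 297 without HF2. Where 1 library is left in a group, it is assumed to vary like the other group.

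The deviations of same-numbered libraries had a correlation of -0.104 between HF and HB in RNA-seq and -0.0138 in Ribo-seq. With so few libraries this shows no pairing by number but cannot exclude it. Between RNA-seq and Ribo-seq, on whose numbers TE rests, the correlation was -0.00239 in HF and -0.0774 in HB. The interaction model, which needs no pairing, gave 568 TE calls, with 1 member. Crossing the numbers, chosen after seeing the data, gave 1777 mRNA calls with 1 member, 900 RPF calls with 0 members and 735 TE calls with 1 member.

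Of the 386 member values under other settings, 20 changed sign, none of them past the thresholds of the study apart from Tm6sf2 without HB2. With the common median Lpin1 mRNA was 0.082, and RPF was 0.15 for Gpam, 0.022 for Dgat2, 0.12 for Mttp and 0.16 for Tm6sf2. With the common sum RPF was -0.64 for Agpat2 and -0.51 for Dgat1, and TE of Lpin2 was -0.44. With voom, Tm6sf2 RPF was 0.45. Without HF1, Lpin1 mRNA was 0.33 (-0.71 without HF2). Without HF2, Tm6sf2 was -0.031 in mRNA (0.34 without HF1), 0.54 in RPF and 0.57 in TE, and Gpam RPF was 0.04. Without HB1, RPF was -0.019 for Agpat2 (0.47 without HB2), and it kept its sign at -0.80 for Gpam, 0.84 for Dgat1, -0.50 for Mttp and -2.90 for Tm6sf2, with TE at -3.14 for Tm6sf2. Without HB2, RPF was 0.44 for Gpam, -0.24 for Dgat1, 0.10 for Mttp and 2.57 for Tm6sf2, and TE of Tm6sf2 was 2.49. The cause was not tested. Ribo-seq depth limits Dgat1, Mogat1 and Tm6sf2 most, with 39, 6 and 35 reads over the 4 libraries.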

Other observations

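The genes that, with Gpam, differed most between the HB libraries in mRNA include enzymes of fatty acid synthesis, picked out after their values were seen. Acly, which makes cytosolic acetyl-CoA, was 10.9 and 25.5 RPKM in HF and 149 and 16.5 in HB. Fasn, the fatty acid synthase, was 15.2 and 21.5 in HF and 212 and 32.4 in HB. Elovl6, which elongates palmitate, was 13.8 and 7.99 in HF and 57.9 and 8.83 in HB, and the lipase gene Pnpla3 was 0.664 and 0.619 in HF and 17.5 and 0.404 in HB. HB1 alone was high in each. In RPF, HB1 was again the highest library for Acly, Fasn and Elovl6, but HF2 also lay above HF1 in these 3 genes. Acly was 19.8 and 49.2 RPKM in HF and 128 and 19.1 in HB, Fasn was 21.5 and 53.0 in HF and 186 and 18.4 in HB, and Elovl6 was 11.3 and 52.5 in HF and 79.8 and 8.29 in HB. Pnpla3 was 0.554 and 0.407 in HF and listed at 0 in both HB libraries.

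Metallothioneins ran the other way between these libraries. Mt1 mRNA was 29.6 RPKM in HB1 and 285 in HB2, with 1348 and 476 in HF, and Mt2 was 5.58 and 82.4, with 682 and 164 in HF. The lipid droplet gene Plin4 was 5.80 and 39.0 in HB and 99.1 and 55.0 in HF.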
